A study of Homo sapiens with 9 samples.

Results

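Receptor tyrosine kinases were compared between LN229 tumours carrying activated TAZ and LN229 tumours carrying an empty vector. LN229 is an established human glioblastoma cell line, and its cells were grown inside the brains of nude mice until the terminal stage of disease. The tested tumours came from LN229 TAZ-4SA cells (n = 6), and the others from LN229 EV cells, with EV the empty vector (n = 3). TAZ, the product of WWTR1, is a Hippo pathway co-activator that needs TEAD partners to bind DNA, and 4SA is the usual name of a form in which serines phosphorylated by the Hippo kinases are replaced by alanine. Both groups share the line, the nude mouse host and the intracranial site, and 1 line in mice that lack mature T cells is the whole model. The labels state no ages, no promoter for the construct and no number of clones. The study asks how TAZ activation drives glioblastoma progression. A list of 50 human receptor tyrosine kinases was matched by gene symbol to the deposited table, and 46 of its 18364 genes were on the list. DDR1, EPHA1, MUSK and TEK were not analysed here.

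Receptor tyrosine kinases are cell-surface proteins that bind a ligand outside the cell, pair up and phosphorylate tyrosines on themselves and on adaptor proteins inside. Each family answers to its own ligands, and several families feed the same RAS, PI3 kinase and phospholipase C routes, so that 1 receptor can take over signalling from another. In glioblastoma, EGFR and PDGFRA are well known for gene amplification, and MET and AXL are known for their part in invasion and in resistance to inhibitors of other receptors.

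The main picture was an exchange of the most abundant receptors. EGFR, MET, AXL, DDR2, EPHB2, ROR1 and ROS1 were called higher in TAZ-4SA tumours. ERBB3, ERBB2, FGFR1, FGFR3, EPHB3, EPHB4, TYRO3, MERTK, ROR2 and LTK were called lower. Calls come from limma across all tested genes at a Benjamini-Hochberg adjusted p under 0.05. Of the 46 receptors, 39 had a mean of at least 1 CPM (read counts scaled to a common library size) over the 9 tumours and were tested, 7 were called higher, 10 were called lower and 22 were not called. The shares, 17.9% higher and 25.6% lower, stand beside 9.02% higher and 13.3% lower among all 15578 genes tested. All 6 TAZ-4SA tumours lay above all 3 EV tumours for 7 tested receptors, beside 10.8% of all genes tested, and below them for 13, beside 21.3% of all genes tested. The median log2 fold change of the tested receptors was -0.80, also with ROR2 at its bound, against -0.85 over all genes tested. With quantile normalization, which brings the median of all genes to -0.15, 10 receptors were higher and 9 lower.

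A passing mean can come from 1 group alone. FLT1, ROR2 and LTK passed through their EV level and ROS1, STYK1 and EPHA5 through their TAZ-4SA level, so the counts describe the receptors that passed and do not stand for all 46. INSRR, FLT3, KDR, MST1R, RET, ALK and EPHB6 were too low to be tested.

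Because TAZ acts through TEAD factors, the 250 bases upstream of each RefSeq start (GRCh38.p14) were searched on both strands for GGAATG, the core of the TEAD motif, whose reverse complement is CATTCC. It was present for 3902 of 27305 genes, or 14.3%. Of the 41 receptors matched in that table, 5 held it, or 12.2%, and these were EGFR, AXL, EPHA2, FGFR2 and NTRK2. Of the 7 receptors called higher, 2 held it, and of the 8 matched receptors called lower, 0 did. The other 3 with the motif were not called by limma and went both ways. Their log2 fold changes were 1.35 for EPHA2, -3.98 for FGFR2 and -3.83 for NTRK2. By limma-voom on recovered reads EPHA2 was called higher, and FGFR2 and NTRK2 were called lower. Genes with several starts have several windows. Counted by window, 2 of 12 held it in the higher set and 0 of 9 in the lower set. Among all 35116 windows the share was 11.9%, and a difference between such small sets was not tested. A match of these letters is a description of the window and says nothing on binding. FLT4, FGFR1, ERBB3, STYK1 and INSRR were not matched. Shown are the stretches around the motif at AXL and EGFR, which were called higher, and at EPHA2, the second most abundant receptor per length in TAZ-4SA tumours, with the motif in capitals as it reads on the strand of the gene.
AXL: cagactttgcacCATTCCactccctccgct
EGFR: gacaaattctatCATTCCtttgggcctagg
EPHA2: cccctttaaagaCATTCCtgagggcgggcg
The AXL stretch lies at chr19:41226531-41226560 on the plus strand, with the motif 212 bases before a start at 41226755, outside the annotated exons of the gene. That AXL start is downstream of the first, as the gene begins at 41219223. The EGFR stretch lies at chr7:55109713-55109742 on the plus strand, 114 bases before a start at 55109839 that is downstream of the first, and it overlaps an annotated EGFR exon. The EPHA2 stretch lies at chr1:16156125-16156154 on the minus strand, 73 bases before the start at 16156069, outside the exons.

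The libraries differed in depth and in how many genes went undetected. Totals ran between 3144861 and 31468135 reads in TAZ-4SA tumours and between 17314672 and 21576264 reads in EV tumours. Genes at 0 reads numbered 2990 to 7365 in TAZ-4SA tumours and 505 to 622 in EV tumours, and the 2 shallowest TAZ-4SA libraries, tumours 5 and 6, were not those with most genes at 0. Receptors at 0 reads numbered 9 to 22 in TAZ-4SA tumours and 0 to 1 in EV tumours. WWTR1 itself stood at 218, 333 and 449 CPM as lowest, median and highest in TAZ-4SA tumours and at 123, 119.5 and 116 CPM in EV tumours. Of markers of other cell types, the summed oligodendrocyte and Schwann lineage markers (8 of 8 in the table) ranged over 64.5 to 457 CPM in TAZ-4SA tumours and over 2508 to 2814 CPM in EV tumours, with SOX10 the highest of them in EV tumours. Summed endothelial markers (10 of 10) ranged over 0.101 to 23.2 CPM in TAZ-4SA tumours and 28.2 to 30.7 CPM in EV tumours. Summed macrophage markers (5 of 10) ranged over 54.7 to 142 CPM in TAZ-4SA tumours and 15.3 to 24.4 CPM in EV tumours, nearly all of it CD68, while P2RY12 was at 0 reads in all TAZ-4SA tumours and PTPRC and TYROBP in 5 of them. Astrocyte markers (6 of 6) summed to 31.5 to 159.5 CPM in TAZ-4SA tumours and 206 to 290 CPM in EV tumours, and the lower sum came from S100B, with means of 2.95 CPM in TAZ-4SA tumours and 208 CPM in EV tumours. GJA1 of the same list was called higher, with means of 46.0 CPM in TAZ-4SA tumours and 18.7 CPM in EV tumours. Of the 6 markers of glioma lines, CD44 was called higher, with means of 309 CPM in TAZ-4SA tumours and 97.6 CPM in EV tumours, and NES was called lower, with 158 CPM in TAZ-4SA tumours and 1324 CPM in EV tumours. VIM averaged 2250 ± 497 CPM in TAZ-4SA tumours and 1820 ± 245 CPM in EV tumours, and SOX2, OLIG2 and TNC had lower means in TAZ-4SA tumours; these 4 were not called. Their part in the results below was not tested. In bulk tumours, fewer cells of a type and less RNA per cell cannot be told apart.

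Within the ERBB family, which binds EGF-like ligands and neuregulins, EGFR and ERBB3 changed places. EGFR (chr7:55019017-55211628), the receptor for EGF and TGF-alpha, had a lowest value of 279, a median of 375 and a highest of 512 CPM in TAZ-4SA tumours, against 8.15, 10.5 and 12.4 CPM in EV tumours. No TAZ-4SA tumour came near the EV range. The log2 fold change was 5.15 (SE 0.30, 95% interval 4.50 to 5.79, limma adjusted p = 4.987e-07). ERBB3 (chr12:56080108-56103505) binds neuregulins but has little kinase activity of its own and signals through its partners. It had 19.8, 70.6 and 120.0 CPM as lowest, median and highest in TAZ-4SA tumours, against 1496, 1294 and 1250.4 CPM in EV tumours. All TAZ-4SA tumours were far below all EV tumours, and the log2 fold change was -4.44 (SE 0.51, interval -5.54 to -3.34, adjusted p = 0.0001106). The summed oligodendrocyte and Schwann lineage markers, the values given above, lay lower in the same tumours, and their part in the ERBB3 result was not tested.

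ERBB2 (chr17:39688094-39728658), the partner that has no known ligand of its own, ran over 16.1, 46.1 and 83.5 CPM as lowest, median and highest in TAZ-4SA tumours, against 132, 146 and 106 CPM in EV tumours. The groups did not overlap, and the log2 fold change was -1.65 (SE 0.51, adjusted p = 0.03565). That call was lost when TAZ-4SA tumour 1 or 6 was left out (adjusted p 0.0704 and 0.06697) or when EV tumour 1, 2 or 3 was (0.1212, 0.1382 and 0.0807). ERBB4, a neuregulin receptor of neurons, had 0 reads in TAZ-4SA tumours 1 to 4, 5.88 CPM in tumour 5 and 5.20 CPM in tumour 6, against 2.34, 1.86 and 3.09 CPM in EV tumours. It was not called (log2 fold change -2.36, interval -5.70 to 0.98, adjusted p = 0.2815).

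**Figure D1:**
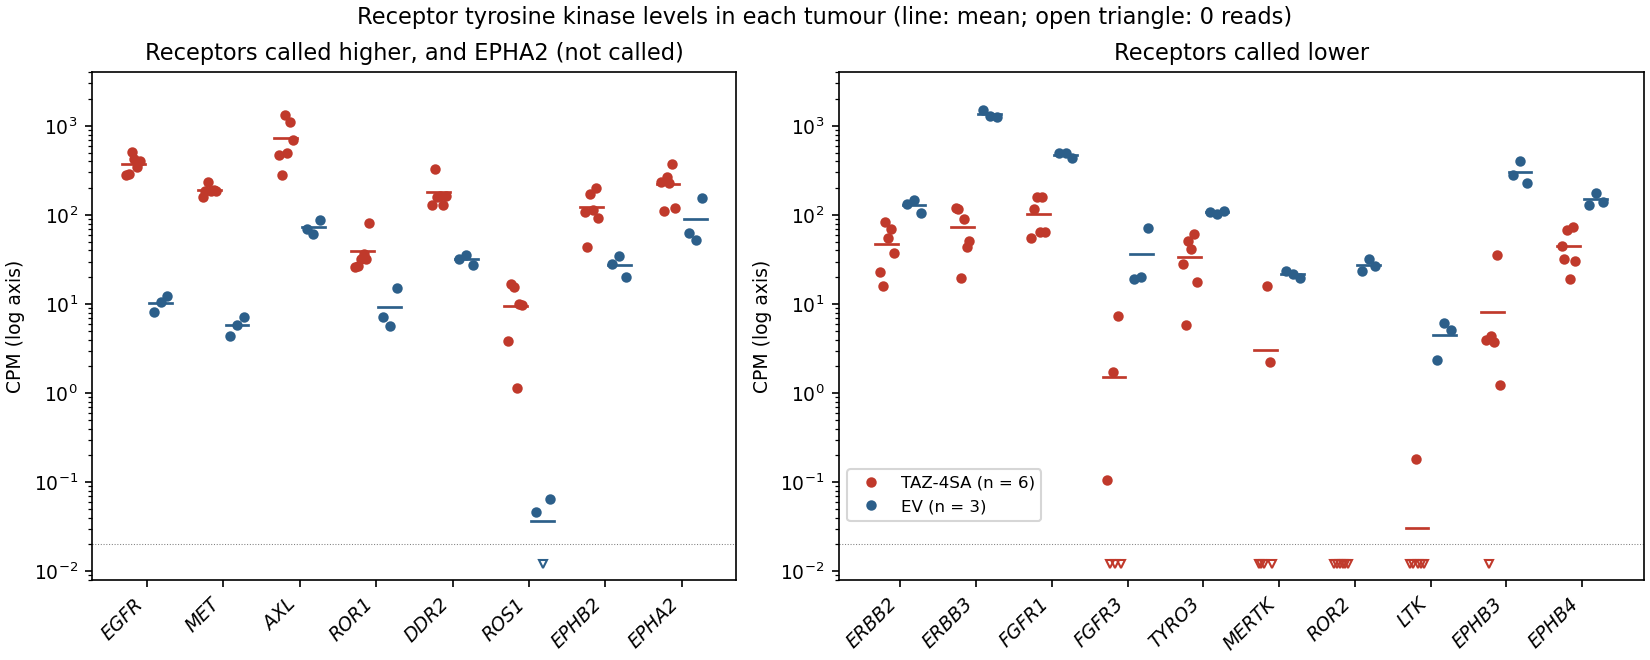
Level of the main receptors in each tumour, in CPM on a log axis, with TAZ-4SA tumours left of EV tumours and 1 point a tumour; short lines are means, and triangles below the dotted line mark tumours with 0 reads. EGFR, MET, AXL and DDR2 are higher in every TAZ-4SA tumour than in any EV tumour, and ERBB3, FGFR1, EPHB3 and ROR2 are lower in every one.

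MET (chr7:116672196-116798377), the receptor for hepatocyte growth factor, ran over 160.3, 187 and 232 CPM as lowest, median and highest in TAZ-4SA tumours, against 4.36, 5.87 and 7.09 CPM in EV tumours. The spread within each group was small beside the gap, with 190.0 ± 23.1 CPM in TAZ-4SA tumours (SD, n = 6) and 5.77 ± 1.37 CPM in EV tumours (SD, n = 3). The log2 fold change was 5.02 (SE 0.31, interval 4.36 to 5.69, adjusted p = 7.293e-07). Its ligand gene HGF had 0 reads in 5 of 6 TAZ-4SA tumours and 1.96 CPM in the other, against 0.937, 1.40 and 2.00 CPM in EV tumours, and was not tested. MST1R, the second member of the family, had 2 reads over all TAZ-4SA tumours and 41 over all EV tumours, a ratio of EV over TAZ-4SA of 30.2 in pooled reads (counting interval 7.84 to 258). Both reads lie in the shallow tumour 6, at 0.611 CPM, above EV tumour 3 at 0.258 CPM, and the ratio of the mean CPM was 6.96. Ratios of pooled reads, here and in the other receptors with few reads, are scaled to the summed library sizes and so weight deep libraries more than means of CPM do.

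In the TAM family, whose members bind GAS6 or protein S on the surface of dying cells, AXL was higher while TYRO3 and MERTK were lower. AXL (chr19:41219223-41261766) ran over 278, 592 and 1327 CPM as lowest, median and highest in TAZ-4SA tumours, against 69.8, 60.8 and 86.7 CPM in EV tumours. Every TAZ-4SA tumour exceeded every EV tumour, and the log2 fold change was 3.14 (SE 0.44, interval 2.20 to 4.09, adjusted p = 0.0004596). TYRO3 ran over 5.85, 34.9 and 61.0 CPM in TAZ-4SA tumours, against 107, 102 and 111 CPM in EV tumours. Those groups did not overlap either, and the log2 fold change was -1.98 (SE 0.64, adjusted p = 0.04252). MERTK, the member best known from phagocytes, had 0 reads in 4 TAZ-4SA tumours and at most 16.1 CPM in the others, against 23.7, 21.6 and 19.7 CPM in EV tumours. It was lower in 6 of 6 TAZ-4SA tumours (log2 fold change -5.42, SE 1.67, adjusted p = 0.03563). Of the macrophage markers, CD68 was called higher in TAZ-4SA tumours, and ITGAM, at 0 reads in 4 of them, was not called.

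The calls of TYRO3 and MERTK depended on which library was left out. That of TYRO3 was also lost with no filter (adjusted p 0.05651) and without the robust option of limma (0.05626). Leaving out TAZ-4SA tumours 5 and 6 together ended both calls (0.07641 for TYRO3 and 0.07072 for MERTK). Without TAZ-4SA tumour 1, 4 or 6 the adjusted p of TYRO3 was 0.0757, 0.05536 and 0.08467, and without EV tumour 1, 2 or 3 it was 0.1253, 0.1216 and 0.1246. Without TAZ-4SA tumour 1, 2, 3 or 6 that of MERTK was 0.07124, 0.05834, 0.05564 and 0.07121, and without EV tumour 1, 2 or 3 it was 0.1212, 0.1187 and 0.1052. The TYRO3 call held without TAZ-4SA tumour 2, 3 or 5, and the MERTK call without tumour 4 or 5. Leaving out tumour 4, which holds nearly all MERTK reads of its group, moved its log2 fold change to -6.42 (adjusted p = 0.00588).

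**Figure D2:**
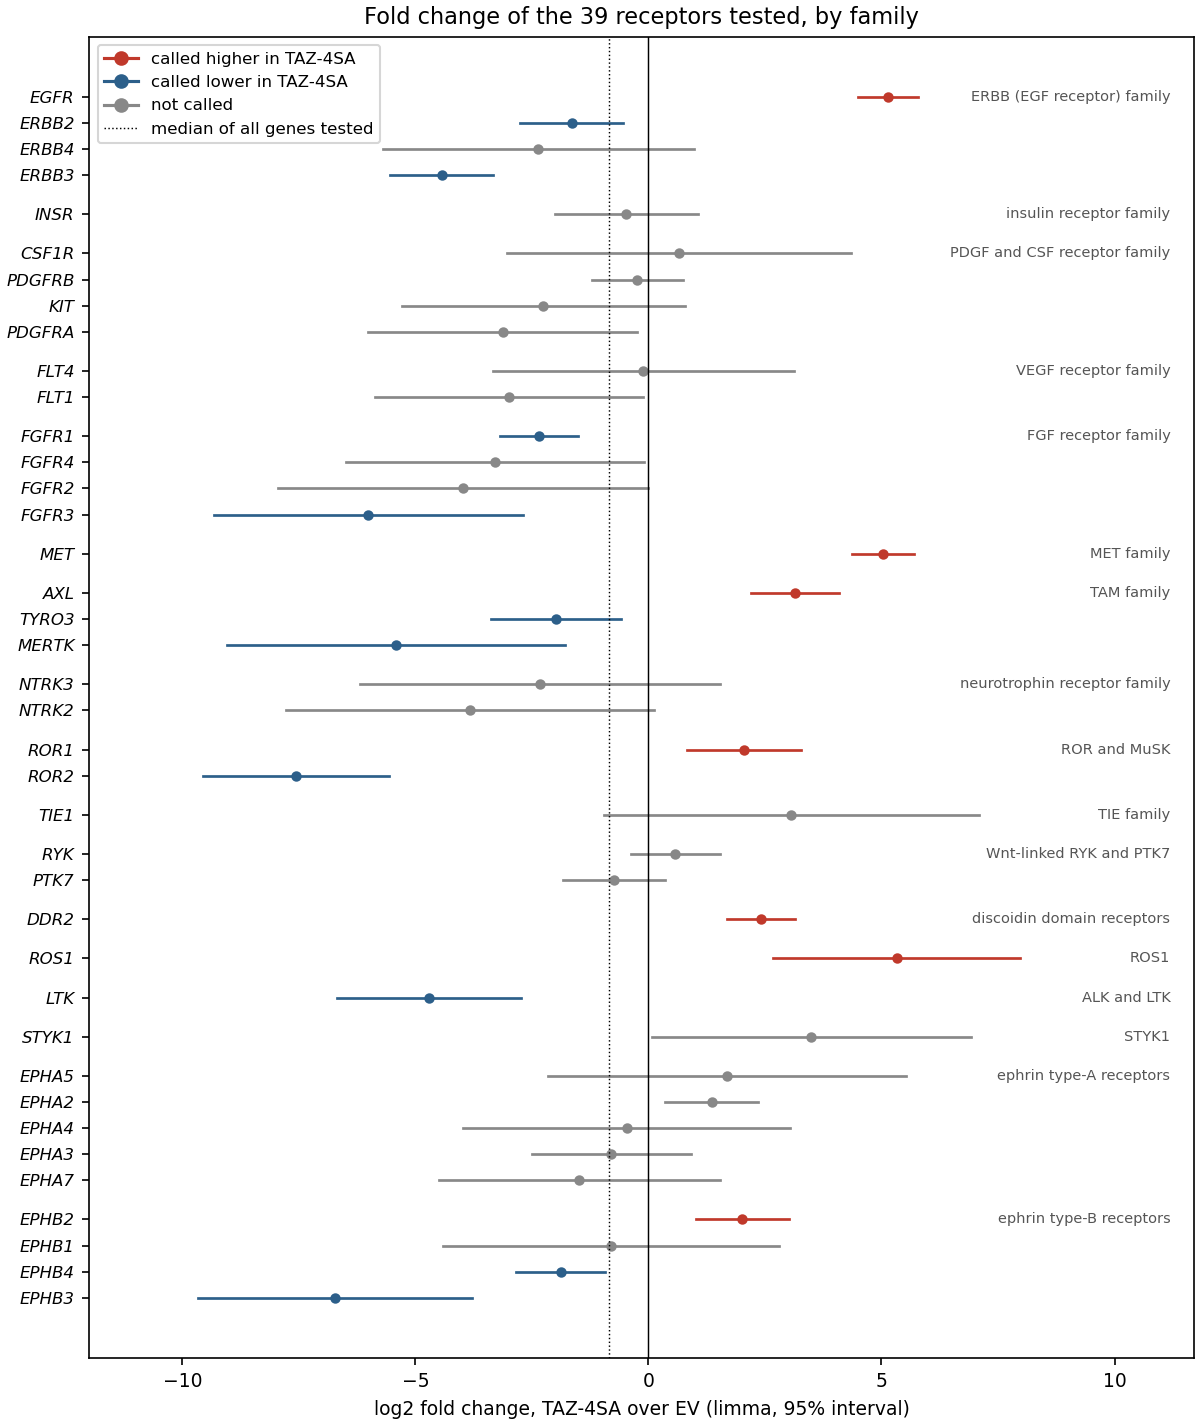
Log2 fold change, TAZ-4SA over EV, of the 39 tested receptors with 95% intervals, grouped by family; red points were called higher and blue points lower at an adjusted p under 0.05, grey ones were not called, and the dotted line is the median of all genes tested. EGFR, MET and ROS1 lie furthest to the right, and ROR2, EPHB3 and FGFR3 furthest to the left, and the EPHB, ERBB, TAM and ROR families hold members on both sides.

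ROR1 and ROR2, both receptors for WNT5A, changed in opposite directions. ROR1 (chr1:63774017-64181498) ran over 26.4, 32.0 and 81.9 CPM as lowest, median and highest in TAZ-4SA tumours, against 7.21, 5.64 and 15.3 CPM in EV tumours, and the groups did not overlap (log2 fold change 2.05, SE 0.56, adjusted p = 0.02121). ROR2 (chr9:91722601-91950228) had 0 reads in each of the 6 TAZ-4SA tumours, against 23.4, 31.9 and 26.9 CPM in EV tumours. It was at least 65.4-fold lower when 3 reads per TAZ-4SA library are allowed as the limit (adjusted p = 0.0001734). The ROR1 call was lost without EV tumour 1 (0.09236) or EV tumour 2 (0.1086), and by limma-voom (0.06259).

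DDR2 (chr1:162630863-162787405), a receptor for fibrillar collagen, ran over 128, 162 and 329 CPM as lowest, median and highest in TAZ-4SA tumours, against 32.4, 35.9 and 27.4 CPM in EV tumours. All TAZ-4SA tumours lay above the EV range (log2 fold change 2.41, SE 0.34, interval 1.68 to 3.14, adjusted p = 0.0004888). ROS1 (chr6:117287353-117425942), best known as a fusion partner in cancers, ran over 1.15, 9.93 and 16.9 CPM in TAZ-4SA tumours, against 0.0468, 0 and 0.0645 CPM in EV tumours. Its 591 reads in TAZ-4SA tumours stood against 2 reads in EV tumours, a ratio of 201 in pooled reads (counting interval 55.3 to 1662) and of 257 in mean CPM (adjusted p = 0.008815). The call was lost without EV tumour 1 (0.06302) or EV tumour 2 (0.07231).

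RYK and PTK7, Wnt co-receptors whose kinase domains are inactive, were not called. RYK ran over 21.3, 53.3 and 70.3 CPM as lowest, median and highest in TAZ-4SA tumours, against 27.2, 31.3 and 32.9 CPM in EV tumours, with an interval of -0.38 to 1.53 for its log2 fold change of 0.57. PTK7 ran over 44.5, 57.3 and 211 CPM in TAZ-4SA tumours, against 135, 156 and 105 CPM in EV tumours, and its interval of -1.83 to 0.36 spans 0. In both genes the groups overlapped. WNT5A, the ligand shared by ROR1 and ROR2, was called higher, at 177 ± 31.5 CPM in TAZ-4SA tumours and 4.23 ± 0.822 CPM in EV tumours (log2 fold change 5.34, adjusted p = 7.293e-07). DOK7, an adaptor of the muscle receptor MuSK, had 0 reads in all TAZ-4SA tumours, against 24.5, 43.1 and 24.7 CPM in EV tumours (adjusted p = 0.0001696).

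Ephrin receptors sense ephrins on neighbouring cells, and the B-type receptors did not move together. EPHB2 (chr1:22710838-22921500) ran over 43.8, 110.2 and 202 CPM as lowest, median and highest in TAZ-4SA tumours, against 28.2, 34.7 and 19.9 CPM in EV tumours (log2 fold change 2.02, SE 0.45, adjusted p = 0.007866). EPHB3 (chr3:184561785-184582408) ran over 0, 3.82 and 35.8 CPM in TAZ-4SA tumours, against 283, 404 and 230.4 CPM in EV tumours (log2 fold change -6.72, SE 1.35, adjusted p = 0.004116). EPHB4 (chr7:100802565-100827523), the receptor for ephrin-B2, ran over 19.1, 38.3 and 73.3 CPM in TAZ-4SA tumours, against 129, 179 and 141 CPM in EV tumours (log2 fold change -1.88, SE 0.44, adjusted p = 0.009429). In all 3 genes the groups did not overlap. The EPHB4 call was lost without EV tumour 2 (0.06273). EPHB3 had 0 reads in TAZ-4SA tumour 2, and it had a log2 fold change of -5.86 without that tumour and -7.45 without TAZ-4SA tumour 5.

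EPHA2 (chr1:16124337-16156069), an ephrin-A receptor often abundant in glioblastoma, ran over 110.4, 233 and 377 CPM as lowest, median and highest in TAZ-4SA tumours, against 62.0, 52.3 and 157 CPM in EV tumours. EV tumour 3 lay inside the TAZ-4SA range, and the adjusted p of 0.05046 missed the threshold (log2 fold change 1.35, interval 0.36 to 2.34). Without EV tumour 3 the log2 fold change was 1.84 (adjusted p = 0.02309), and without TAZ-4SA tumour 2 or 6 the adjusted p was 0.03137 and 0.04733. EPHA3 ran over 4.43, 11.6 and 30.0 CPM in TAZ-4SA tumours, against 23.9, 20.9 and 16.8 CPM in EV tumours, with an interval of -2.50 to 0.90 on the log2 scale. EPHA4 ran over 0, 23.1 and 57.1 CPM in TAZ-4SA tumours, against 11.3, 21.3 and 10.7 CPM in EV tumours, with an interval of -3.99 to 3.05. Both overlapped between the groups. By limma 0 of the 8 tested ephrin genes were called, with 1 higher and 4 lower at an unadjusted p under 0.05, and limma-voom on recovered reads called 4 lower, which were EFNA1, EFNA4, EFNB1 and EFNB3. EFNA1, a ligand of EPHA2, averaged 11.6 ± 13.1 CPM in TAZ-4SA tumours and 76.5 ± 21.3 CPM in EV tumours, and EFNB2, the ligand of EPHB4, averaged 54.6 ± 14.9 CPM in TAZ-4SA tumours and 25.2 ± 13.1 CPM in EV tumours.

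In the FGF receptor family, FGFR1 and FGFR3 were called lower, and FGFR2 and FGFR4 had lower values without a call by limma. FGFR1 (chr8:38411143-38468635), the receptor for basic fibroblast growth factor and others, ran over 55.0, 90.3 and 159.8 CPM as lowest, median and highest in TAZ-4SA tumours, against 501, 494 and 435 CPM in EV tumours. The groups were far apart (log2 fold change -2.35, SE 0.39, interval -3.19 to -1.51, adjusted p = 0.001359). FGFR3 had 0 reads in 3 TAZ-4SA tumours and at most 7.28 CPM in the others, against 19.0, 19.9 and 71.5 CPM in EV tumours (log2 fold change -6.01, SE 1.53, adjusted p = 0.01494). Leaving out EV tumour 1, 2 or 3 ended that call (0.0536, 0.05562 and 0.07917), and leaving out TAZ-4SA tumour 5 moved the log2 fold change to -6.80.

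FGFR4 ran over 0, 12.3 and 23.7 CPM as lowest, median and highest in TAZ-4SA tumours, against 38.0, 53.4 and 68.3 CPM in EV tumours. All TAZ-4SA tumours were below all EV tumours, yet the interval was wide (log2 fold change -3.30, interval -6.50 to -0.11, adjusted p = 0.1251). FGFR2 had 0 reads in 3 TAZ-4SA tumours and a highest value of 15.6 CPM, against 15.6, 21.9 and 13.1 CPM in EV tumours (log2 fold change -3.98, interval -7.96 to 0.00, adjusted p = 0.1365), and limma-voom on recovered reads called it lower (adjusted p = 0.0311). Of the 11 tested FGF ligands and co-receptors, 1 was called higher and 0 lower by limma, with 2 lower at an unadjusted p under 0.05 and 1 lower by limma-voom (FGFRL1, a receptor-like protein without a kinase). The higher one was FGF5, at 14.1 ± 10.6 CPM in TAZ-4SA tumours and 1.18 ± 0.879 CPM in EV tumours (log2 fold change 3.34, adjusted p = 0.04922). Its call ended without TAZ-4SA tumour 1, 2, 4 or 6 (0.05365, 0.05476, 0.06883 and 0.06663) and without EV tumour 1, 2 or 3 (0.1918, 0.1993 and 0.09756), and by limma-voom (0.07249). FGF2, the basic fibroblast growth factor, averaged 58.6 ± 29.9 CPM in TAZ-4SA tumours and 10.9 ± 1.32 CPM in EV tumours without passing (adjusted p = 0.07179).

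Platelet-derived growth factor receptors, which drive mural and glial progenitor cells, were not called. PDGFRA (chr4:54229293-54298245) ran over 0.123, 10.01 and 45.2 CPM as lowest, median and highest in TAZ-4SA tumours, against 86.6, 52.8 and 48.2 CPM in EV tumours. Every TAZ-4SA tumour was below every EV tumour, but the TAZ-4SA values spread over a wide range (log2 fold change -3.13, interval -6.01 to -0.25, adjusted p = 0.1087). Without TAZ-4SA tumour 3 the adjusted p was 0.04692. PDGFRB (chr5:150113839-150155845), the mural cell receptor, ran over 36.9, 45.6 and 106 CPM in TAZ-4SA tumours, against 33.2, 94.5 and 77.9 CPM in EV tumours, and the groups overlapped (interval -1.22 to 0.75).

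KIT, the stem cell factor receptor, had 0 reads in 4 TAZ-4SA tumours and a highest value of 3.53 CPM, against 2.86, 0.93 and 2.19 CPM in EV tumours. CSF1R (chr5:150053295-150113365), the receptor that macrophages and microglia need, had 0, 11.3, 1.54, 0, 15.7 and 5.50 CPM in TAZ-4SA tumours 1 to 6, against 0.937, 1.28 and 0.838 CPM in EV tumours. Its TAZ-4SA values lay on both sides of the EV values (log2 fold change 0.66, interval -3.02 to 4.35, adjusted p = 0.7971). FLT3, a receptor of blood progenitors, had a highest value of 3.79 CPM and a median of 0 CPM in TAZ-4SA tumours, against 0.328, 0.233 and 0.258 CPM in EV tumours. Human CSF1R and FLT3 are listed here in tumours whose blood cells come from the mouse, and the sources state no step that sorted mouse reads out.

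Receptors typical of vessels differed among themselves. KDR and FLT1 had lower mean values in TAZ-4SA tumours, as the endothelial markers summed did, and FLT4 and TIE1 had higher ones; KDR was too low to be tested and the others were not called by limma. KDR (chr4:55078481-55125595), the main VEGF-A receptor of endothelium, had 1 read in all TAZ-4SA tumours and 67 in EV tumours, a ratio of EV over TAZ-4SA of 98.6 in pooled reads (counting interval 17.1 to 3953) and of 22.9 in mean CPM. FLT1, a VEGF receptor that also acts as a decoy, had 0 reads in 4 TAZ-4SA tumours and at most 5.25 CPM in the others, against 2.25, 2.56 and 3.16 CPM in EV tumours. It was not called (log2 fold change -2.99, interval -5.87 to -0.12, adjusted p = 0.1229), and without TAZ-4SA tumour 4 it was (0.02068). FLT4, the lymphatic receptor for VEGF-C, ran over 0, 3.16 and 11.5 CPM as lowest, median and highest in TAZ-4SA tumours, against 1.64, 1.92 and 2.00 CPM in EV tumours, with overlap.

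TIE1, an orphan receptor of endothelium, had 19.4, 0, 143, 11.4, 97.4 and 19.9 CPM in TAZ-4SA tumours 1 to 6, against 1.41, 1.51 and 1.87 CPM in EV tumours. It was above the EV range in 5 of 6 TAZ-4SA tumours and at 0 reads in tumour 2 (log2 fold change 3.06, interval -0.95 to 7.08, adjusted p = 0.2453). Without TAZ-4SA tumour 2 the log2 fold change was 4.39 (adjusted p = 0.008559). The summed endothelial markers in TAZ-4SA tumours 1 to 6 were 17.6, 0.101, 5.41, 8.88, 23.2 and 6.72 CPM, below the 28.2 CPM of the lowest EV tumour in each. EMCN and PLVAP had 0 reads in all TAZ-4SA tumours, and ERG was called lower. ROBO4, of the same list, had 6.36, 0, 0, 8.88, 5.32 and 3.36 CPM in TAZ-4SA tumours 1 to 6, against 0.609, 0.349 and 0.387 CPM in EV tumours, and was not called (log2 fold change 1.54, adjusted p = 0.4959), but was without TAZ-4SA tumours 2 to 4 (3.10, adjusted p = 0.03113).

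NTRK2, NTRK3, EPHA5, EPHA7 and EPHB1, picked after their values were seen, were highest in TAZ-4SA tumours 5 and 6 of their group. EPHA4 was highest in tumour 5 but not in tumour 6, and EPHA3 was highest in tumour 1. NTRK2, the receptor for BDNF, had 0.107, 0, 0.615, 14.1, 24.6 and 21.1 CPM in TAZ-4SA tumours 1 to 6, against 32.9, 33.1 and 37.3 CPM in EV tumours. NTRK3, the receptor for neurotrophin-3, had 0.0534, 5.25, 0, 4.53, 23.2 and 20.2 CPM in TAZ-4SA tumours, against 10.2, 17.3 and 13.0 CPM in EV tumours. Neither was called by limma. The log2 fold change of NTRK2 was -3.83 (interval -7.77 to 0.12, adjusted p = 0.1472, against 0.03676 by limma-voom, which called it lower), and that of NTRK3 was -2.33 (interval -6.20 to 1.54, adjusted p = 0.359). EPHB1 likewise had 1.23, 0, 9.28, 6.58, 28.5 and 30.9 CPM in TAZ-4SA tumours, against 7.45, 8.66 and 8.25 CPM in EV tumours. EPHA5 had 14.8 and 20.2 CPM in TAZ-4SA tumours 5 and 6 and at most 0.641 CPM in the other TAZ-4SA tumours, against 0.0937, 0.174 and 0.193 CPM in EV tumours. EPHA7 had 0.840 and 6.72 CPM in tumours 5 and 6 and a median of 0 CPM over the 6 TAZ-4SA tumours, against 0.422, 0.872 and 1.93 CPM in EV tumours.

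Markers of 3 brain cell types were also highest in TAZ-4SA tumours 5 and 6 of their group. The summed level of the 7 neuron markers was 204, 84.5, 132, 100.2, 842 and 1297 CPM in TAZ-4SA tumours 1 to 6, against 60.8, 44.95 and 156 CPM in EV tumours, with SNAP25 alone at 343 and 882 CPM in tumours 5 and 6. Summed astrocyte markers stood at 159.5 and 108.5 CPM in tumours 5 and 6 and at most at 72.0 CPM in the other TAZ-4SA tumours, and summed oligodendrocyte and Schwann lineage markers at 457 and 318.5 CPM and at most at 144 CPM. The part of these markers in the receptor values was not tested, and whether their reads come from human or mouse RNA could not be traced. With tumours 5 and 6 left out together, ERBB4 and EPHA7 were called lower (log2 fold changes -4.12 and -2.87, adjusted p = 0.0002669 and 0.004703). Both had 0 reads in every remaining TAZ-4SA tumour. These calls therefore follow from leaving out the only TAZ-4SA tumours that held their reads. The same run called STYK1 higher (0.005786) and ended the calls of ERBB2 (0.064), TYRO3 (0.07641) and MERTK (0.07072).

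**Figure D3:**
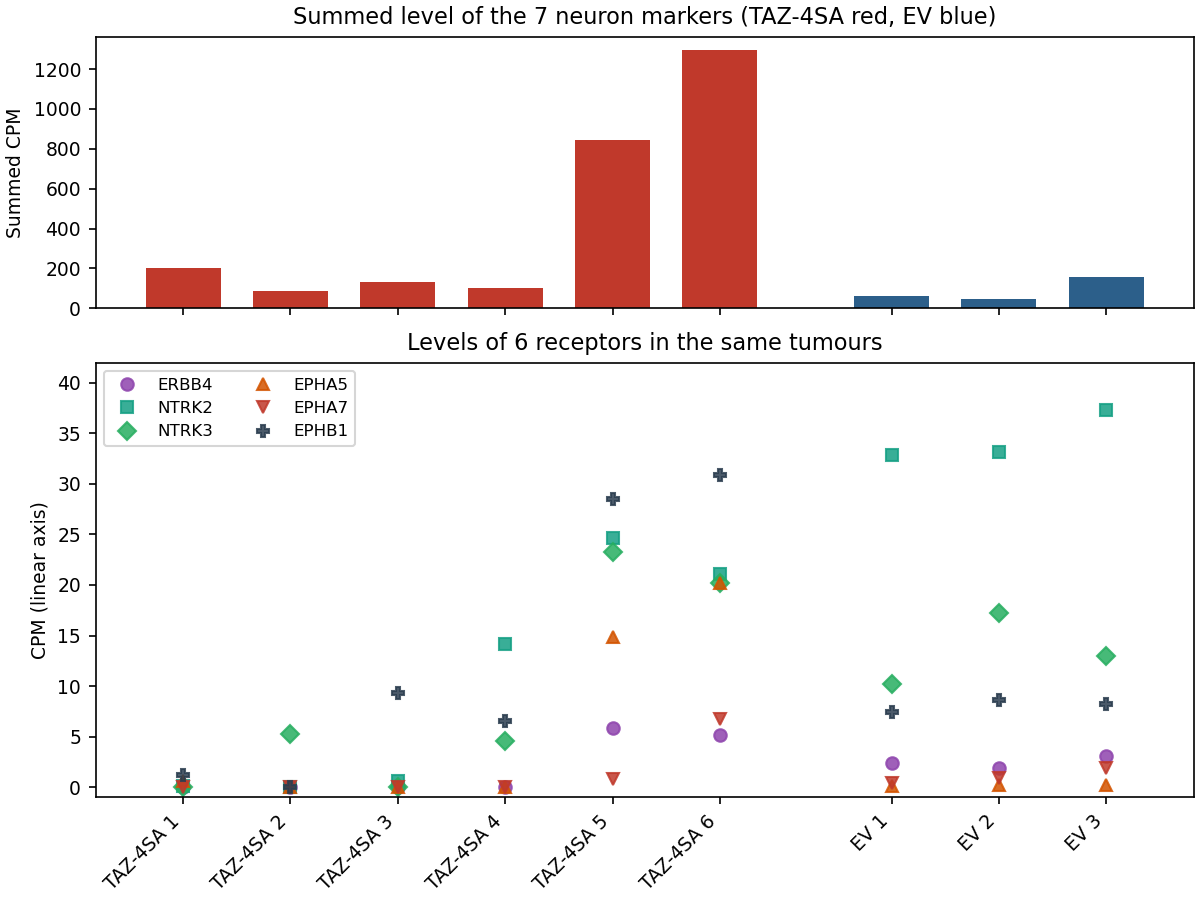
Summed level of the 7 neuron markers (bars, above) and levels of ERBB4, NTRK2, NTRK3, EPHA5, EPHA7 and EPHB1 (points, below) in each tumour, in CPM on linear axes, with TAZ-4SA tumours left of EV tumours. TAZ-4SA tumours 5 and 6, the shallowest libraries, hold the highest summed neuron markers (842 and 1297 CPM) and the highest NTRK2, NTRK3, EPHA5 and EPHB1 values of their group.

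Among the remaining receptors, LTK was called lower and the others were not. LTK, a receptor for ALKAL cytokines, had 3 reads in TAZ-4SA tumours, all of them in tumour 3, and 234 in EV tumours, where it stood at 2.34, 6.11 and 5.09 CPM. The ratio of EV over TAZ-4SA was 115 in pooled reads (counting interval 38.8 to 561) and 147 in mean CPM (adjusted p = 0.003268), and quantile normalization ended the call (log2 fold change -1.40, adjusted p = 0.2678). Its relative ALK had 3 reads in TAZ-4SA tumours and 34 in EV tumours, a ratio of 16.7 in pooled reads (interval 5.25 to 84.9) and of 19.8 in mean CPM. RET, the GDNF family receptor, had 0 reads in all TAZ-4SA tumours, against 0.890, 1.40 and 1.29 CPM (63 reads) in EV tumours, and was at least 2.85-fold lower with 3 reads per TAZ-4SA library as the limit. EPHB6, an ephrin receptor without kinase activity, had 1 read in TAZ-4SA tumours and 112 in EV tumours, a ratio of 165 in pooled reads (interval 28.99 to 6569) and of 41.8 in mean CPM.

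The insulin receptor INSR ran over 5.81, 17.0 and 33.1 CPM as lowest, median and highest in TAZ-4SA tumours, against 26.2, 20.6 and 19.2 CPM in EV tumours, with overlap (interval -2.02 to 1.07). INSRR, an insulin receptor relative, had a highest value of 1.12 CPM in TAZ-4SA tumours, against 1.499, 1.22 and 1.03 CPM in EV tumours. STYK1, a short membrane kinase with almost no extracellular part, ran over 0, 9.31 and 16.7 CPM in TAZ-4SA tumours, against 0.375, 0.291 and 0.322 CPM in EV tumours. It was above the EV range in 5 of 6 TAZ-4SA tumours (log2 fold change 3.49, interval 0.07 to 6.91, adjusted p = 0.1292), and without TAZ-4SA tumour 6, which had 0 reads, the log2 fold change was 4.53 (adjusted p = 0.01563).

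To set receptors beside each other, CPM was divided by the length of the longest principal coding transcript in kilobases (GENCODE v29). Summed over all 46 receptors, this level was 375, 294, 714, 407, 701 and 417 CPM per kb in TAZ-4SA tumours 1 to 6 and 636, 663 and 612 CPM per kb in EV tumours. The total thus overlapped between groups, while the shares of AXL and ERBB3 did not. AXL ranked first in 6 of 6 TAZ-4SA tumours, with 19.99% to 39.2% of the summed level, against ranks of 8 to 10 and 1.94% to 2.99% in EV tumours. ERBB3 ranked between 6 and 20 in TAZ-4SA tumours, with 0.468% to 6.67% of the summed level, and first in 3 of 3 EV tumours, with 33.0% to 39.8%. EGFR ranked 2 to 5 in TAZ-4SA tumours and 26 to 27 in EV tumours, and MET ranked 4 to 7 in TAZ-4SA tumours and 28 in each EV tumour.

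The 7 receptors called higher made up 53.0% to 65.3% of the summed level in TAZ-4SA tumours and 4.33% to 5.13% in EV tumours. The 10 called lower made up 8.89% to 17.3% in TAZ-4SA tumours and 71.7% to 77.6% in EV tumours. These shares follow from how the sets were picked and are a description.

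By mean level per kb, the order in TAZ-4SA tumours was AXL (154 ± 86.1 CPM per kb), EPHA2 (56.4 ± 25.1), EGFR (38.2 ± 9.09), EPHB2 (33.1 ± 15.5) and MET (28.6 ± 3.47). From EPHA2 to MET, each pair of neighbours differed by less than the larger of their SDs, while AXL exceeded EPHA2 by more than either SD. In EV tumours the order was ERBB3 (228 ± 22.2 CPM per kb), FGFR1 (80.8 ± 6.17), EPHB3 (72.2 ± 21.1) and EPHB4 (34.6 ± 5.99), and FGFR1 and EPHB3 differed by less than the larger of their SDs. With the union of all coding exons as the length, chosen after seeing the data, EPHB2 fell to 10.1 CPM per kb in TAZ-4SA tumours, and EPHB3 passed FGFR1 in EV tumours.

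**Figure D4:**
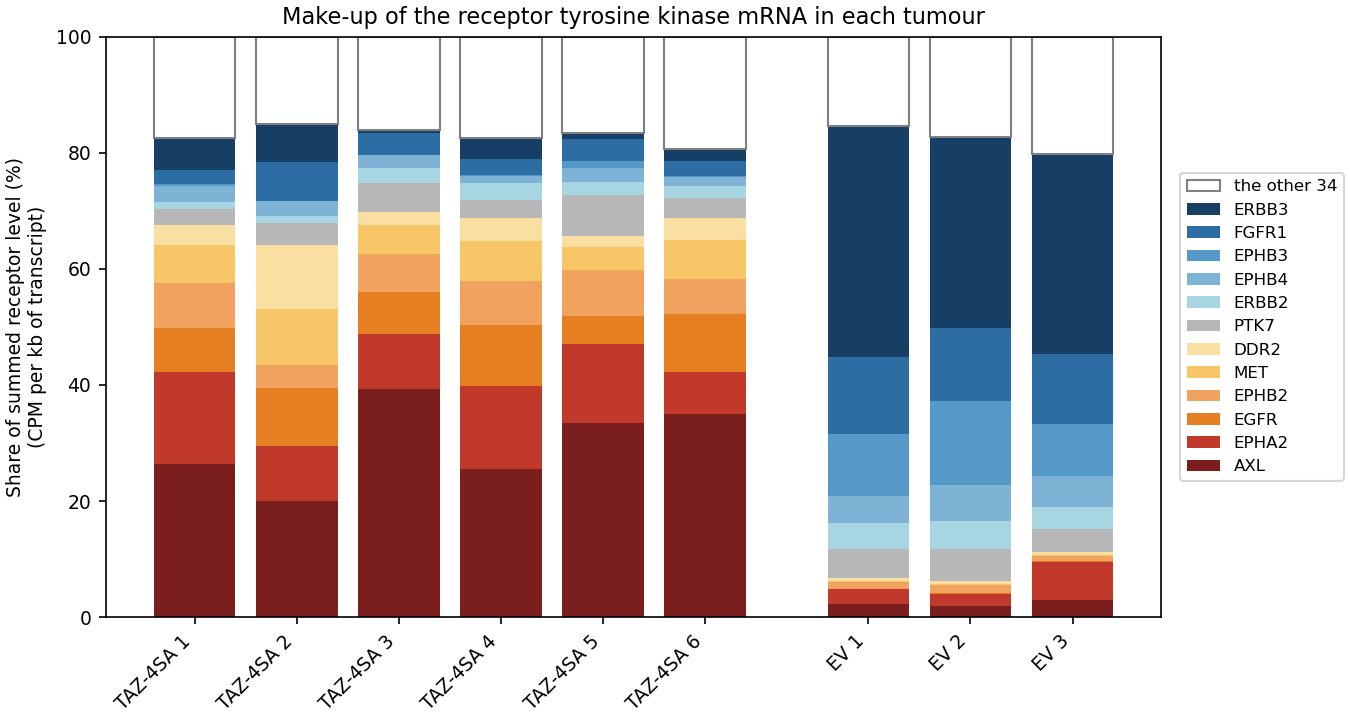
Share of the summed receptor level (CPM per kb of transcript) held by 12 abundant receptors and by the other 34 together in each tumour, in percent, with the 6 TAZ-4SA tumours left of the 3 EV tumours. AXL holds the largest share in every TAZ-4SA tumour and ERBB3 in every EV tumour.

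Ligands and other genes of receptor signalling were taken from lists of 126 genes, of which 112 were in the table and 98 were tested. Of these, 16 were called higher and 9 lower, beside 9.02% and 13.3% of all genes tested, and their median log2 fold change was -0.23 against -0.85 over all genes tested. For the ERBB family, 7 ligands were tested, and NRG1 was called higher and TGFA lower. NRG1, a neuregulin that binds ERBB3 and ERBB4, ran over 53.1, 62.9 and 153 CPM as lowest, median and highest in TAZ-4SA tumours, against 0.796, 1.45 and 1.48 CPM in EV tumours (log2 fold change 5.72, adjusted p = 4.515e-05). Between the groups, the ligand was higher and its receptor ERBB3 lower in TAZ-4SA tumours. Within the TAZ-4SA group, tumour 3 was lowest for both, at 53.1 CPM for NRG1 and 19.8 CPM for ERBB3. TGFA, a ligand of EGFR, averaged 35.8 ± 18.4 CPM in TAZ-4SA tumours and 84.6 ± 13.98 CPM in EV tumours (log2 fold change -1.35, adjusted p = 0.03594), and its call ended without TAZ-4SA tumour 4 or 6 (0.05663 and 0.06156) or EV tumour 1, 2 or 3 (0.1664, 0.09848 and 0.1334).

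Of 7 tested ligands of the PDGF, KIT and CSF1 receptors, 3 were called higher and 1 lower. PDGFC averaged 207 ± 71.6 CPM in TAZ-4SA tumours and 13.9 ± 1.09 CPM in EV tumours (log2 fold change 3.81, adjusted p = 2.168e-05). KITLG, the ligand of KIT, averaged 109 ± 36.6 CPM in TAZ-4SA tumours and 9.40 ± 4.22 CPM in EV tumours (log2 fold change 3.52, adjusted p = 0.000172). PDGFB averaged 36.5 ± 10.5 CPM in TAZ-4SA tumours and 4.90 ± 0.895 CPM in EV tumours (log2 fold change 2.82, adjusted p = 0.003993), a call lost by limma-voom (0.06093). PDGFA went the other way, at 46.1 ± 8.73 CPM in TAZ-4SA tumours and 156 ± 29.5 CPM in EV tumours (log2 fold change -1.76, adjusted p = 0.001786). Of their receptors PDGFRA, PDGFRB, KIT and CSF1R, 0 were called by limma, 1 was lower at an unadjusted p under 0.05, and PDGFRA was called lower by limma-voom.

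Among 6 tested VEGF ligands and co-receptors, 3 were called higher and 1 lower. VEGFC, the ligand of FLT4, averaged 42.9 ± 18.9 CPM in TAZ-4SA tumours and 0.974 ± 0.262 CPM in EV tumours (log2 fold change 5.18, adjusted p = 0.000707). NRP1, a co-receptor for VEGF and semaphorins, averaged 136 ± 35.1 CPM in TAZ-4SA tumours and 11.3 ± 4.71 CPM in EV tumours (log2 fold change 3.61, adjusted p = 4.847e-05). NRP2 averaged 79.5 ± 28.5 CPM in TAZ-4SA tumours and 24.8 ± 5.00 CPM in EV tumours (log2 fold change 1.62, adjusted p = 0.01081), a call lost without EV tumour 1 (0.07377). VEGFA, the hypoxia-driven ligand of KDR and FLT1, averaged 135 ± 32.2 CPM in TAZ-4SA tumours and 109.8 ± 17.4 CPM in EV tumours and was not called. PGF, which binds FLT1, averaged 4.23 ± 6.20 CPM in TAZ-4SA tumours and 74.7 ± 9.54 CPM in EV tumours (log2 fold change -6.16, adjusted p = 0.02413), and its call ended without EV tumour 1, 2 or 3 (0.09917, 0.0957 and 0.08285), while without TAZ-4SA tumour 3 the log2 fold change was -6.95.

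Neither tested TAM ligand passed the threshold. GAS6, the ligand of AXL, ran over 0.404, 86.6 and 324 CPM as lowest, median and highest in TAZ-4SA tumours, against 14.99, 17.6 and 21.1 CPM in EV tumours, and tumour 2 was the one below the EV range. It was not called (log2 fold change 1.48, adjusted p = 0.5152), and without that tumour the log2 fold change was 2.78 (adjusted p = 0.003926). PROS1, the gene of protein S, averaged 36.0 ± 11.1 CPM in TAZ-4SA tumours and 19.9 ± 4.27 CPM in EV tumours (adjusted p = 0.1878).

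Of 3 tested neurotrophins, BDNF was called higher, at 37.3 ± 15.9 CPM in TAZ-4SA tumours and 1.25 ± 1.27 CPM in EV tumours (log2 fold change 5.02, adjusted p = 0.00189, and 5.73 without EV tumour 3). NTF3, the ligand of NTRK3, had 0 reads in all TAZ-4SA tumours, against 0.796, 6.45 and 1.23 CPM in EV tumours (adjusted p = 0.01149), and the call ended without EV tumour 2 (0.09702). The NTF3 call also ended with quantile normalization (log2 fold change -0.98, adjusted p = 0.3269), a pseudocount of 2 CPM (0.05636) and array weights (0.05592). Of the 5 tested GDNF ligands and co-receptors of RET, GFRA1 was called higher, at 109 ± 49.0 CPM in TAZ-4SA tumours and 26.9 ± 4.18 CPM in EV tumours (log2 fold change 1.88, adjusted p = 0.01021). The GFRA1 call was lost in a fit with the shared tumour numbers as a block (0.1041). NRTN, the ligand neurturin, was called lower (log2 fold change -5.22, adjusted p = 0.00699). PTN, a heparin-binding growth factor, averaged 29.6 ± 19.0 CPM in TAZ-4SA tumours and 342 ± 19.3 CPM in EV tumours and missed the threshold by limma (adjusted p = 0.05148). Limma-voom on recovered reads called PTN lower (adjusted p = 0.009219). The single tested angiopoietin was not called, and of the MET family ligands MST1 was not called by limma but was called lower by limma-voom.

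**Figure D5:**
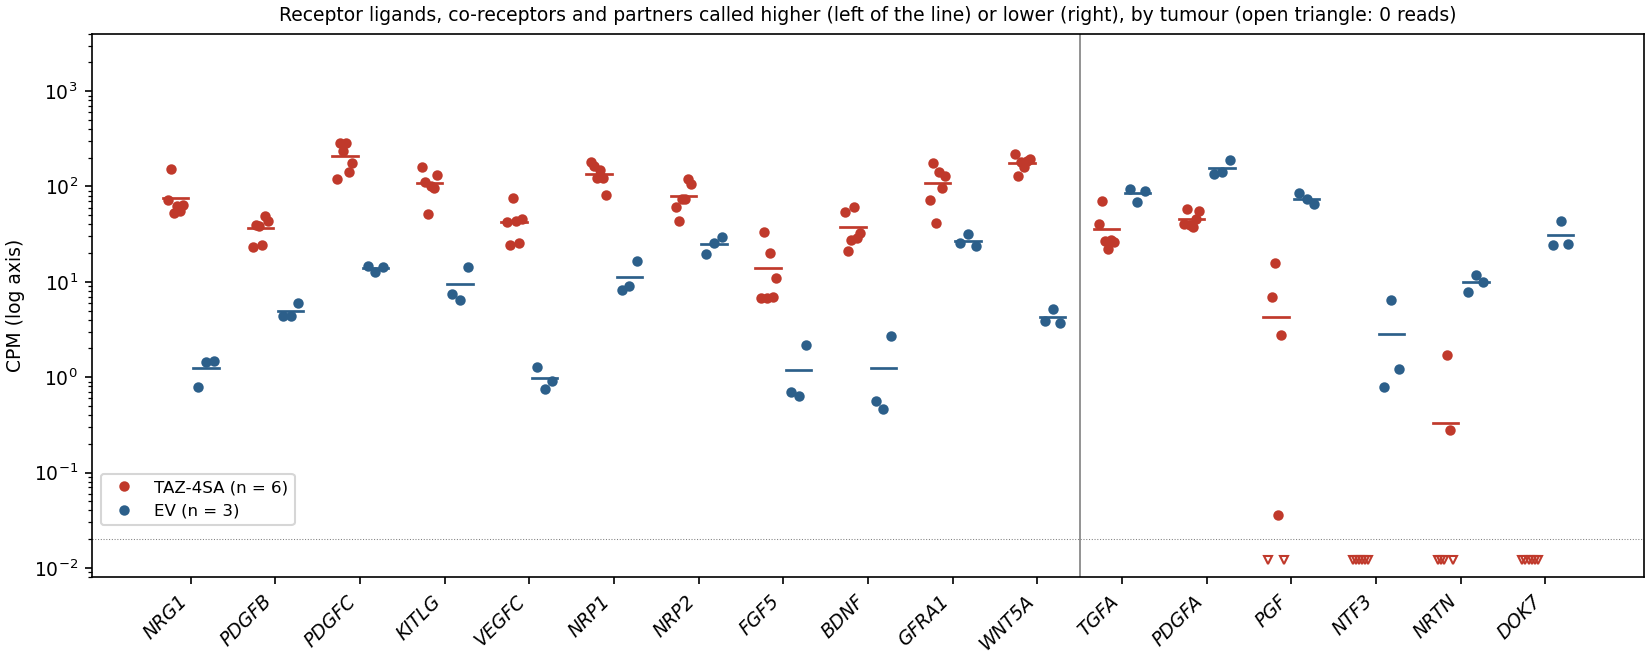
Level of the called ligands, co-receptors and partners in each tumour, in CPM on a log axis, with TAZ-4SA tumours left of EV tumours short lines for means and triangles for tumours with 0 reads. NRG1, PDGFC, KITLG, VEGFC and WNT5A are higher in every TAZ-4SA tumour than in any EV tumour, and PDGFA is lower in every one.

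Inside the cell, 28 adaptors and proximal effectors were tested, of which 4 were called higher and 2 lower. IRS1 and IRS2, the docking proteins of insulin and IGF receptors, averaged 346 ± 200.3 and 324 ± 50.1 CPM in TAZ-4SA tumours, against 42.8 ± 22.9 and 39.4 ± 25.5 CPM in EV tumours (log2 fold changes 2.94 and 3.21, adjusted p = 0.001234 and 8.288e-05). PTPN11, the phosphatase SHP2 that links receptors to RAS, averaged 209 ± 63.9 CPM in TAZ-4SA tumours and 54.3 ± 7.55 CPM in EV tumours (log2 fold change 1.90, adjusted p = 0.001088). PIK3CA, a catalytic subunit of PI3 kinase, averaged 45.4 ± 10.9 CPM in TAZ-4SA tumours and 13.6 ± 2.82 CPM in EV tumours (log2 fold change 1.71, adjusted p = 0.01057), a call lost without EV tumour 1 or 2 (0.07082 and 0.06236). PLCG1, the phospholipase that receptors activate, averaged 188 ± 57.9 CPM in TAZ-4SA tumours and 575 ± 90.9 CPM in EV tumours (log2 fold change -1.66, adjusted p = 0.002444). PLCG2, its relative in blood cells, was also called lower (log2 fold change -3.97, adjusted p = 0.0407). The PLCG2 call ended without TAZ-4SA tumour 1, 2, 3, 4 or 6 (adjusted p between 0.0512 and 0.07064) and without any 1 EV tumour (between 0.1155 and 0.1579), and with TAZ-4SA tumour 5 left out the log2 fold change was -4.69.

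Of 13 inhibitors, ubiquitin ligases and phosphatases tested, 1 was called higher and 1 lower. PTPRF, a receptor-type phosphatase, averaged 942 ± 344 CPM in TAZ-4SA tumours and 207 ± 9.75 CPM in EV tumours (log2 fold change 2.11, adjusted p = 0.0004092). PTPRJ, a receptor-type phosphatase known to act on EGFR and MET, averaged 25.6 ± 12.5 CPM in TAZ-4SA tumours and 110.4 ± 10.96 CPM in EV tumours (log2 fold change -2.27, adjusted p = 0.006518). The PTPRJ call was lost in a fit with the shared tumour numbers as a block (0.08771).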

How the data were processed

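RNA of the tumours was extracted with TRIzol, and libraries were made with a SMART-Seq mRNA kit and Nextera XT, per the labels' protocols. These kits lose the strand, so reads of overlapping genes cannot be told apart. HISAT2, edgeR and GRCh38 are named, without roles, per the submitters' processing notes. The counter, the annotation, any filter and the handling of mouse reads were not stated in those notes. What the authors deposited are log2 CPM values, and the unit was read from the values. All tumours share a lowest value of 0.145 CPM, the authors' prior. Once it was removed, 100% of values under 5000 reads were whole within 0.1 read, and reads were recovered. CPM in the text has the prior removed. A limit of 3 reads is a mean of 0.419 CPM in TAZ-4SA libraries and 0.17 CPM in EV libraries. Intervals are 95%, and limits and counting intervals cover counting error only.

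Groups were taken from the labels, which do not tie tumours to animals, so p-values measure only the spread between these samples, which may be technical. No pair of tumours agreed within sampling noise. Log2 values of pairs correlated at 0.705 to 0.825 among TAZ-4SA tumours and at 0.963 to 0.986 among EV tumours. The main fit takes the same variance for both groups. Tests used limma 3.58.1 under R 4.3.3, with trend and robust options, on the deposited log2 values of 15578 genes whose mean reached 1 CPM (18364 in all, 224 without a symbol), with Benjamini-Hochberg adjustment at 0.05. The fit was checked on counts simulated with the same dispersion in all tumours. That check does not cover unequal spread or unequal numbers of genes at 0 reads between the groups. Fold changes include the prior, which understates those of genes near it and, where only some tumours have 0 reads, can overstate the ratio of means. Coordinates are from RefSeq GRCh38.p14, for 46 of 46 receptors. Members and lists were chosen with earlier results of these data known. Named are all receptors, up to 4 called genes of a list by smallest p, and ligands beside their receptors, with full values for called receptors with a mean of at least 20 CPM in either group, those with 0 reads in a group, and their relatives. Alternatives were other pseudocounts, scalings, filters, weights, limma-voom on recovered reads, a block, and leaving tumours out. The protein table was not used here.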

Additional observations from a re-analysis of the deposited data

Results flagged for a closer look

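In 8 genes, 1 TAZ-4SA tumour stood apart from the other 5 on the log2 scale by a gap beyond the 95% limit of Dixon's test. This was looked for in 39 receptors and 25 signalling genes, and for values without ties chance gives about 1 such gap in 20. That rate does not hold where several tumours share 0 reads, as in LTK and PLCG2. With 5 tumours at 0 reads, any read in the other would have flagged LTK. In TIE1, STYK1 and EPHA4 the gap runs to a tumour at 0 reads, so its size depends on the prior. TAZ-4SA tumour 2 was high for DDR2, at 329 CPM against 128 to 164 CPM in the remaining 5. That tumour was also high for NRG1, at 153 CPM against 53.1 to 72.0 CPM in the others, and low for TIE1, at 0 CPM against 11.4 to 143 CPM. Tumour 6 was high for ROR1, at 81.9 CPM against 26.4 to 36.3 CPM, and low for STYK1, at 0 CPM against 6.03 to 16.7 CPM. EPHA4 was at 0 CPM in tumour 4 and at 6.73 to 57.1 CPM in the others. LTK was at 0.184 CPM in tumour 3, from 3 reads, and at 0 CPM in the others. PLCG2 was at 4.20 CPM in tumour 5 and at 0 to 0.306 CPM in the others.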

How the results depend on the processing

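Calls of EGFR, ERBB3, FGFR1, MET, AXL, DDR2, EPHB3 and ROR2 held in every alternative run that tested them. Receptors called numbered 5 to 9 higher and 5 to 10 lower with 1 tumour left out at a time. With array weights they were 12 and 16, and with a replicate block 5 and 11, of which 5 and 7 were called without it. The block used the shared numbers 1 to 3 and ended the receptor calls of ERBB2, TYRO3, ROR1, EPHB2 and EPHB4. Of the signalling genes it ended the calls of PDGFB (adjusted p 0.05456), PIK3CA (0.05986), PTPRJ (0.08771), GFRA1 (0.1041), NRP2 (0.112), PGF (0.1668), FGF5 (0.1752) and TGFA (0.2587). TAZ-4SA tumours without an EV tumour of the same number add nothing to that comparison. The deviations of same-numbered tumours correlated at 0.0313, 0.00372 and -0.0471, and 1 of 6 tumours correlated best with its own number. Whether same-numbered tumours share a batch was not tested. Over all genes, 1405 higher and 2079 lower became 1920 and 1624 with quantile normalization, 604 and 2057 with the block, 2531 and 5630 with array weights, 1291 and 3646 with limma-voom, 2181 and 4745 with limma-voom weighted per group, 1507 and 3384 with no filter, 1392 and 967 with a 10 CPM filter, and 799 and 852 without EV tumour 2. Signalling genes called higher were 25 with array weights. Those called lower ranged from 5 to 14 with 1 tumour left out, and were 18 with a pseudocount of 2 CPM, 16 with no filter, 28 with array weights, 22 with limma-voom, 27 with limma-voom weighted per group, 14 without TAZ-4SA tumours 2 to 4 and 20 without tumours 5 and 6. No called receptor changed sign. Among those not called, log2 fold changes that did were, under quantile normalization, ERBB4 0.24, KIT 0.11, FLT4 2.12, EPHA4 0.045, EPHA7 0.80 and EPHB1 0.51; under a pseudocount of 2 CPM, FLT4 0.29 and EPHA4 0.09; under the replicate block, FLT4 1.32, EPHA4 0.47 and EPHA5 -0.214; under array weights, PDGFRB 0.22; under limma-voom, INSR 0.046, or 0.002 weighted per group. Without tumours 5 and 6 they were INSR 0.001, CSF1R -0.53, FLT4 0.043 and EPHA5 -0.42, and without tumours 2 to 4 FLT4 0.047, EPHA4 0.44 and EPHB1 0.37. With 1 tumour left out, PDGFRB ranged from -0.69 to 0.062, FLT4 from -0.64 to 0.62, EPHA4 from -0.97 to 0.75 and EPHB1 from -1.34 to 0.20. With exon unions as lengths, means moved to 10.1 CPM per kb for EPHB2 in TAZ-4SA tumours and to 174, 67.0, 22.0 and 21.3 CPM per kb for ERBB3, FGFR1, PTK7 and ERBB2 in EV tumours. The cause of these differences was not tested. At the shallowest library, 3144861 reads, receptors near 1 CPM rest on few reads.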
